A study of Mus musculus with 6 samples.

Results

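The 10 genes described here are components and targets of bone morphogenetic protein (BMP) signalling, and they were compared between ovarian secondary follicles of young and of old mice. They comprise the receptors Bmpr1a, Bmpr1b and Bmpr2, the signal carriers Smad1, Smad4 and Smad5, the inhibitor-of-DNA-binding genes Id1, Id2 and Id3, and Tmem100. Every probe set annotated with the symbol of only 1 gene, and that gene being among the 10, was taken, which gave 28 probe sets of 34945, and 10 genes of 18193. RNA was measured on 6 Affymetrix 3' expression arrays of the mouse genome. There were 3 arrays for follicles of 9-week-old (young) females and 3 for those of 32-week-old (old) females, all C57BL/6J and specific pathogen-free, with no further treatment named. The follicles were isolated by hand from the ovaries, and each sample is bulk RNA of the oocyte, its granulosa cells and any tissue still attached to the follicle. The sample titles call the 3 of each age biological replicates. The sources used here do not say how many mice or follicles lie behind a sample. How independent the replicates are is therefore not known, and a p-value here reflects only how much these samples vary.

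BMP ligands bind a complex of type I receptors, such as Bmpr1a and Bmpr1b, and type II receptors, such as Bmpr2. The type II receptor phosphorylates the type I receptor, which phosphorylates Smad1, Smad5 or Smad9, and these join Smad4 and enter the nucleus, where the Id genes are among the first to be transcribed. In the ovary the oocyte secretes the BMP family members Bmp15 and Gdf9, granulosa cells carry the receptors, and mutations of Bmpr1b in sheep raise the ovulation rate.

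Id transcripts are a common readout of this pathway, so the stretches just before the transcription starts of Id2 and Id3 are shown as context for their values. They are RefSeq sequences of the mouse build GRCm38.p6, each 250 bases long and read along the strand of the gene, Id2 from chr12:25096093-25096342 (minus strand) and Id3 from chr4:136143572-136143821 (plus strand). Capitals mark GGCGCC, a GC-rich motif that SMAD proteins can bind, and GTCT or its reverse complement AGAC, the short SMAD-binding motif. Both strands were searched, and no matches overlapped.
Id2: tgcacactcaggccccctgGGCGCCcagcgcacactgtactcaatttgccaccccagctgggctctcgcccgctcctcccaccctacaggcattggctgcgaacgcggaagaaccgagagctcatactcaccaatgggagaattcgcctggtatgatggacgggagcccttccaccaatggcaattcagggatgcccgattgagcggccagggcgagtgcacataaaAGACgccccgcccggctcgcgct
Id3: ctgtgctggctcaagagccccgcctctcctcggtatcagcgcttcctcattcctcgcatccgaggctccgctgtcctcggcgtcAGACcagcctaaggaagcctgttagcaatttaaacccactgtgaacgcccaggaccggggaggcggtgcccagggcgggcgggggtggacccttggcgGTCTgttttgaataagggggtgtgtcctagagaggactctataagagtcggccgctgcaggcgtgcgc
The Id2 stretch held 1 GGCGCC and 1 AGAC, and the Id3 stretch held no GGCGCC and 2 of the short motifs. Among 32851 such windows of mouse promoters, 9.59% held GGCGCC and 82.9% held GTCT or AGAC, so the short motif is present in most promoters. A match is a description of the letters, and binding was not measured. Of the 10 genes, 7 were in the promoter table, and Id1, Smad4 and Tmem100 were not, so no stretch is shown for Id1. Sequence further upstream was not searched.

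All values below are log2 of the deposited RMA intensity, and each difference is old minus young on that scale. Where a gene had several probe sets, the brightest of them, by its mean over all arrays, was used for the gene. A gene or probe set counted as called when it changed 2-fold or more with a limma adjusted p of 0.05 or less, and a second count used that p whatever the fold.

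Of the 10 genes, Tmem100 alone was called, and it was downregulated in old follicles, to a measured 0.350 of its young level. None was called as upregulated. Among all genes, 0.126% were called lower and 0.638% higher. Whatever the fold, 2 of the 10 genes, Smad1 and Tmem100, were past the adjusted p, both lower, against 13.3% of all genes lower and 10.1% higher, so this count is not far from that of genes at large. The arrays of the age groups did not overlap for 3 of the 10, Bmpr1a, Smad1 and Tmem100, all lower, against 23.7% of all genes lower and 18.9% higher. The median difference of the 10 genes was -0.09, against -0.004 for all genes.

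**Figure D1:**
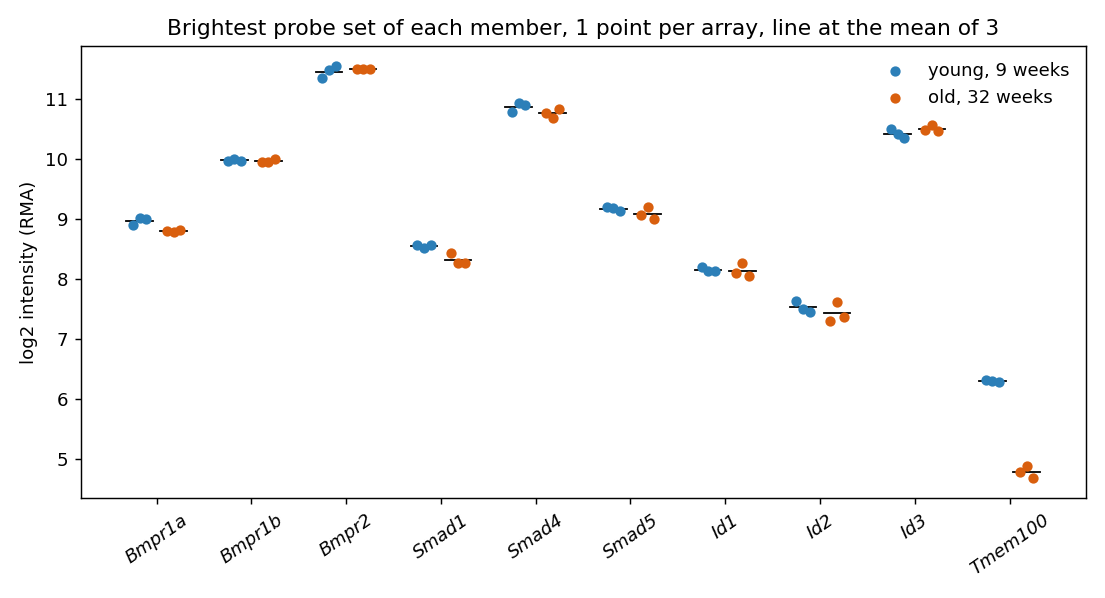
Log2 RMA intensity (vertical axis) of the brightest probe set of each of the 10 genes, with 1 point for each of 3 young (9 weeks, blue) and 3 old (32 weeks, orange) arrays and a line at each group mean. Tmem100 lies near 6.30 in young follicles and from 4.69 to 4.89 in old follicles, while the groups of the other genes lie close together; intensities of different probe sets are not comparable as transcript amounts.

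Among the receptors, the brightest probe sets showed little difference between the ages. Bmpr1a, a type I receptor that binds BMPs directly, gave 8.89, 9.01 and 8.99 in young follicles and 8.79, 8.78 and 8.81 in old follicles. Every old sample lay below every young sample, by -0.17 on average (95% interval -0.30 to -0.04), and the limma adjusted p of 0.0592 missed the threshold. Bmpr1a passed without young replicate 1, at -0.21 with an adjusted p of 0.0398, and also with the mean of all its probe sets, with dim genes left out, with a trend and robust prior and with array weights, at adjusted p values of 0.00978 to 0.0224 from limma. Bmpr1b, the type I receptor mutated in sheep of high fecundity, gave 9.96, 10.001 and 9.96 in young follicles and 9.94, 9.94 and 9.99 in old follicles. These values overlapped, and the 95% interval of the difference was -0.13 to 0.10, well short of a 2-fold change. Bmpr2, the type II receptor that also binds Bmp15 and Gdf9, gave 11.34, 11.47 and 11.53 in young follicles and 11.49, 11.49 and 11.49 in old follicles. The old samples fell inside the young range, and the 95% interval of the difference was -0.11 to 0.19.

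The receptors have 12 probe sets in all, and 2 of them passed an adjusted p of 0.05, both of Bmpr1a and both lower, which is near the 13.8% of all probe sets that passed as lower (8.95% passed as higher). Probe set 1425491_at of Bmpr1a gave 6.39, 6.22 and 6.09 in young follicles and 5.33, 5.29 and 5.29 in old follicles. The groups were well apart, and the difference of -0.93 (SE 0.083) put the old level at 0.525 of the young one, with a limma adjusted p of 0.000354. Probe set 1425493_at of Bmpr1a differed by -0.28, with a limma adjusted p of 0.0362. That result was lost without young replicate 1, young replicate 2 or any of the 3 old replicates, at limma adjusted p values of 0.0551 to 0.115. Of the other 3 dimmer probe sets of Bmpr1a, 1425494_s_at differed by -0.15, 1451729_at by -0.0036 and 1445413_at by -0.024. The dimmer probe sets of Bmpr1b differed by 0.10 and -0.14, and those of Bmpr2 by 0.14 and 0.18, and none of these 4 passed.

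The SMADs were slightly lower or level at their brightest probe sets. Smad1, a receptor-activated SMAD of the BMP branch, gave 8.57, 8.52 and 8.56 in young follicles and 8.43, 8.26 and 8.27 in old follicles. The groups did not overlap, and the old level was 0.855 of the young one (difference -0.23, SE 0.063, limma adjusted p 0.0384). This result rests on every sample but old replicate 1: it was lost without any of the 3 young replicates and without old replicate 2 or 3, at limma adjusted p values of 0.0851 to 0.12. It was also lost after quantile normalization, at -0.16 with an adjusted p of 0.117. Smad5, whose function overlaps with that of Smad1 in mouse granulosa cells, gave 9.19, 9.18 and 9.13 in young follicles and 9.07, 9.19 and 9.00 in old follicles. One old sample lay within the young range, and the difference of -0.08 did not pass (95% interval -0.23 to 0.07). Smad4, the partner shared by the BMP and the activin branches, gave 10.78, 10.93 and 10.89 in young follicles and 10.76, 10.68 and 10.82 in old follicles. The ranges overlapped, and the 95% interval of the difference was -0.27 to 0.04.

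Of the 9 probe sets of the 3 SMAD genes, 4 passed, all lower, against 13.8% of all probe sets. Another 2 lay higher in every old sample than in any young one without passing, which is near the 17.6% of all probe sets that did not overlap and were higher. Probe set 1416081_at of Smad1 gave 6.66, 6.60 and 6.69 in young follicles and 5.90, 6.11 and 6.08 in old follicles, a difference of -0.62 (SE 0.074, limma adjusted p 0.00129). Against this, probe set 1459843_s_at of Smad1 gave 7.995, 8.17 and 8.13 in young follicles and 8.28, 8.30 and 8.29 in old follicles, a difference of 0.19 in the other direction (adjusted p from limma 0.071). Smad1 transcripts were therefore read as lower by 2 probe sets and as slightly higher by the third, which did not pass. Smad4 was read in a similarly uneven way. Probe set 1422485_at of Smad4 gave 9.69, 9.72 and 9.69 in young follicles and 9.19, 9.22 and 9.17 in old follicles, which is -0.51 (SE 0.055) with an adjusted p from limma of 0.000851. Probe set 1422486_a_at of Smad4 gave 10.51, 10.46 and 10.47 in young follicles and 10.65, 10.70 and 10.62 in old follicles, which is 0.18 with an adjusted p from limma of 0.0579. Under quantile and cyclic loess normalization, and with dim probe sets left out, both higher probe sets passed. For Smad5, 1421047_at fell from 7.10 ± 0.024 to 6.84 ± 0.012 (SD, n = 3 arrays in each group; limma adjusted p 0.0119), and 1451873_a_at differed by -0.19 without passing.

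The Id genes, which encode helix-loop-helix proteins without a DNA-binding region that hold other such factors inactive, did not differ between the ages beyond the spread of their replicates. All 5 of their probe sets overlapped between the groups, and none passed even an unadjusted p of 0.05 in limma. Id1 gave 8.19, 8.13 and 8.13 in young follicles and 8.09, 8.26 and 8.05 in old follicles. The old samples lay on both sides of the young ones, with a 95% interval of the difference of -0.18 to 0.14. Id2 gave 7.63, 7.51 and 7.45 in young follicles and 7.30, 7.62 and 7.37 in old follicles. Here too one old sample lay as high as the young ones, and the 95% interval was -0.32 to 0.12. The dimmer probe sets of Id2 differed by 0.08 and 0.09. Id3 gave 10.49, 10.41 and 10.35 in young follicles and 10.48, 10.55 and 10.46 in old follicles, with a 95% interval of -0.06 to 0.22. Each of these 3 intervals lies within a 2-fold change in either direction. The signs of the Id1 and Id2 differences turned under alternative processing, so no direction is given for them.

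Tmem100 encodes a small transmembrane protein that BMP ligands induce in endothelial cells through the receptor Acvrl1. Its brightest probe set, 1449533_at, gave 6.32, 6.30 and 6.29 in young follicles and 4.78, 4.89 and 4.69 in old follicles. The young samples lay within a few hundredths of each other, and all 3 old samples lay far below them. The difference was -1.51 (SE 0.064, 95% interval -1.66 to -1.36, limma adjusted p 1.49e-05). The old level lay below the median of all probe sets on the arrays, which was 4.93 to 4.95, and under the log2 of 5 taken here as the limit for dim features. No detection calls were used, so the fold is the measured one and its true size at so low a level is uncertain. Its dimmer probe set, 1446625_at, gave 4.79, 5.06 and 4.96 in young follicles and 4.63, 4.81 and 4.70 in old follicles. That is a difference of -0.22 with overlapping groups, and its limma adjusted p was 0.104. The means of this probe set, 4.94 and 4.71, lay under the limit for dim features at both ages. When both probe sets were averaged, Tmem100 remained past the adjusted p, at -0.87 (limma adjusted p 0.000165), but no longer reached a 2-fold change.

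Over the 6 arrays the genes whose values ran most like those of Tmem100 were Igfbp2, a binding protein of insulin-like growth factors (Pearson r 0.999), Ghr, the growth hormone receptor (r 0.999), and Ilf2, a double-stranded RNA binding protein (r 0.999). They were lower in old follicles by -0.50, -0.51 and -0.31. The 6 points fall into the 2 age groups, and 193 of 18192 genes, 1.06%, had an r above 0.99, so the likeness mainly describes a shared step between the ages.

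Across all 28 probe sets of the 10 genes, 1 was called lower and none higher, against 0.552% and 0.466% of all probe sets. Whatever the fold, 7 passed as lower and none as higher, against 13.8% and 8.95%. After quantile normalization or cyclic loess it was 5 lower and 2 higher, and with dim probe sets left out 9 lower and 2 higher, the 2 being those of Smad1 and Smad4 that lay higher. The groups did not overlap for 10 lower and 3 higher probe sets of the 28, against 23.7% and 17.6%. Of the 18 probe sets that were not the brightest of their gene, 5 passed as lower and none as higher, against 15.4% and 8.54% of all such probe sets. The 5 probe sets 1449533_at of Tmem100, 1425491_at of Bmpr1a, 1416081_at of Smad1, 1422485_at of Smad4 and 1421047_at of Smad5 passed under every alternative that was run on probe sets, with each sample left out in turn included. None of these alternatives adjusted for the difference between the ages in control probe sets that is described below.

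**Figure D2:**
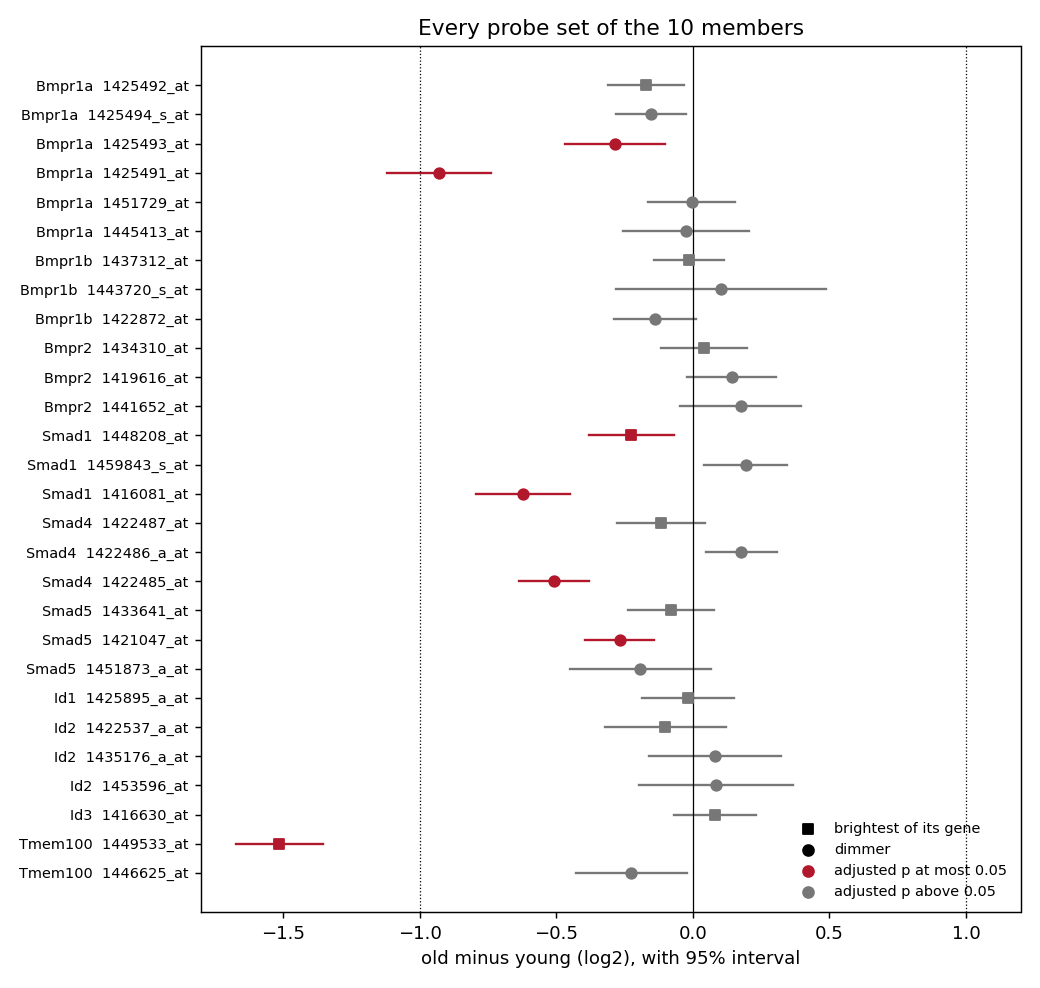
Difference between old and young follicles (horizontal axis, log2) for every probe set of the 10 genes, with 95% intervals from limma; squares are the brightest probe set of a gene, circles the dimmer ones, red an adjusted p of at most 0.05, and dotted lines a 2-fold change. Bmpr1a, Smad1 and Smad4 each have a dimmer probe set that is further to the left than the brightest, at -0.93, -0.62 and -0.51, while the probe sets of the Id genes all have intervals across 0.

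Since probe sets of the same gene differed in their change, the difference between each dimmer probe set and the brightest of its gene was compared between the ages on each array, for 18 pairs. In an exact permutation test (two-sided), 9 pairs reached p = 0.1, the smallest that 3 against 3 arrays allow, and none could pass after adjustment (at best 0.2). With limma fitted to all 16752 such pairs, a test chosen after seeing the data, 5 of the 18 passed. Relative to the brightest, the dimmer probe set moved down in 3 pairs and up in 2, against 13.6% and 10.6% of all pairs. These counts are near those of pairs at large. The gap widened for 1425491_at of Bmpr1a from -2.74 ± 0.21 to -3.49 ± 0.032, for 1416081_at of Smad1 from -1.90 ± 0.025 to -2.29 ± 0.21, and for 1422485_at of Smad4 from -1.17 ± 0.069 to -1.56 ± 0.096 (SD, n = 3 arrays in each group). It narrowed for 1459843_s_at of Smad1 from -0.45 ± 0.11 to -0.03 ± 0.10, and for 1446625_at of Tmem100 from -1.37 ± 0.15 to -0.08 ± 0.08. These adjusted p values from limma ran from 0.000211 for Tmem100 to 0.0365 for 1416081_at of Smad1. Of these probe sets, 1459843_s_at can bind more than a single transcript. The mean of 1446625_at lay under the dim limit of 5 at both ages (4.94 and 4.71), and that of 1449533_at did so in old follicles (4.79).

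**Figure D3:**
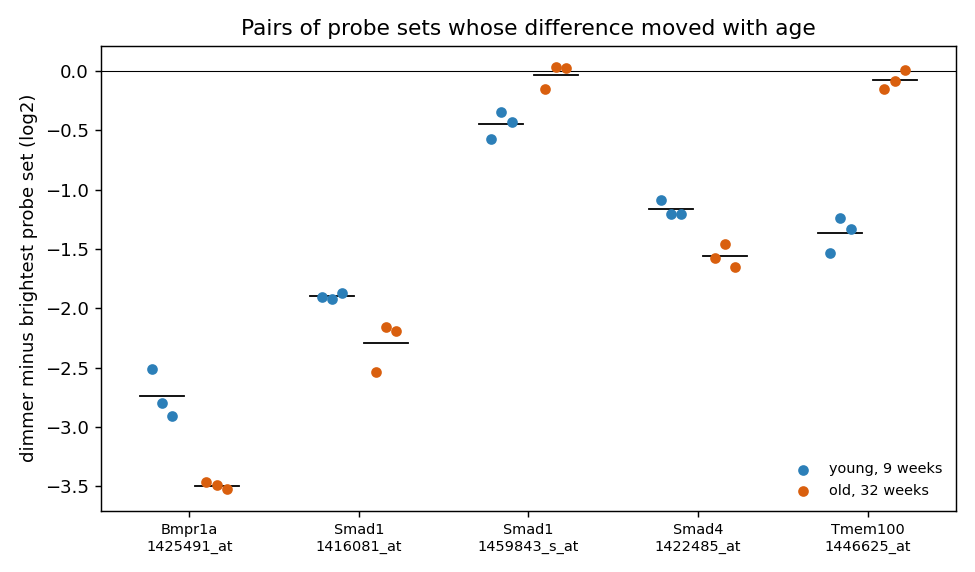
Difference between a dimmer and the brightest probe set of the same gene (vertical axis, log2) on each of the 3 young (blue) and 3 old (orange) arrays, with lines at the group means, for the 5 pairs past the adjusted p. The 5 were chosen by that p from these same values, so the lack of overlap seen in each largely follows from the choice. The gap of Tmem100 narrows from -1.37 to -0.08, with the old means of both its probe sets under the log2 of 5 taken as dim.

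Control probe sets also differed between the ages. The gap between the probe sets for the 3' and the 5' end of Gapdh was 0.47 ± 0.014 in young samples and 1.51 ± 0.0048 in old samples, and that of Actb was 1.48 ± 0.033 and 2.53 ± 0.050 (SD, n = 3 arrays in each group). The 5' ends of both control transcripts were thus read as relatively weaker on all 3 old arrays. This difference coincided fully with age, so the effects of the 2 cannot be told apart here. Positions of the probe sets along the transcripts of the 10 genes were not analysed here, and the part of this difference in their values was not tested. Dimmer probe sets were 16752 of 34945 in all, and they made up 170 of the 193 probe sets called lower and 47 of the 163 called higher.

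Markers of follicle cells and of other cell types of the ovary were summed as linear intensities. The brightest markers weigh most in each sum, so a sum is not a measure of cell number. The defining markers of granulosa cells and oocytes were bright, with Inha at 12.82 in young and 12.80 in old follicles and Zp3 at 11.96 and 11.42. The 10 granulosa markers summed to 25710 to 26104 in young and 25326 to 26099 in old samples, with 2 past the adjusted p as lower and none as higher. Of 12 oocyte markers, 10 were lower, and their sum went from 26380 to 27200 in young samples to 22578 to 23134 in old samples. Of 14 endothelial markers, the cells in which Tmem100 is best known, 7 were higher and 2 lower, with sums of 918 to 930 in young and 962 to 1028 in old samples. Among these, Pecam1 lay low on the arrays, at 3.49 and 3.27, Cdh5 was at 5.10 and 5.25, and neither passed. The 7 higher ones ran from 0.24 for Flt1 to 0.79 for Plvap, and the 2 lower ones were Sox18 at -0.20 and Emcn at -0.50. Of 11 markers of theca and stroma measured, 4 were higher and 1 lower, with sums of 8559 to 8886 and 8834 to 8847. Of the 4 higher ones, Star was called, at 4.78 in young and 6.65 in old follicles. Brighter markers dominate this sum, so it barely shows that rise. Macrophage markers were higher in 9 of 12 and lower in 1, summing to 457 to 459 and 734 to 767. Smooth muscle markers were higher in 7 of 10 (1328 to 1434 and 1932 to 1984) and surface epithelium markers in 9 of 10 (742 to 782 and 1056 to 1113), with none lower. Called as higher were 2 macrophage, 1 smooth muscle and 4 surface epithelium markers. No marker of granulosa cells, oocytes or endothelial cells was called. Of all genes, 13.3% passed as lower and 10.1% as higher whatever the fold. In bulk samples, fewer cells of a type and less RNA per cell cannot be told apart, and the part of these differences in the values of Tmem100, Smad1 or Bmpr1a was not tested. No marker gene is listed at 0.

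Around the 10 genes, 75 of 80 further genes of the pathway were measured, in 6 lists. None was called. Whatever the fold, 16 were lower and 9 higher, beside the 13.3% and 10.1% of all genes, and their median difference was -0.03. The surplus of lower genes was not kept under other scalings, with 12 lower and 11 higher after quantile normalization and 11 lower and 11 higher after cyclic loess. Among all genes the counts past the adjusted p went from 2422 lower and 1835 higher to 1937 and 2151 after quantile normalization and to 1934 and 2184 after cyclic loess. The total of 25 was not stable in size, since it was 12 without young replicate 2, 15 without old replicate 1 and 14 without old replicate 3. In each list, up to 2 genes in each direction were named by the smallest p. The counts of single lists below are small and stand beside the same 13.3% lower and 10.1% higher of all genes.

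Of 12 ligands measured, 2 were downregulated, and both come from the oocyte. Bmp15 differed by -0.63 (SE 0.12, limma adjusted p 0.011) and Gdf9 by -0.20 (SE 0.049, limma adjusted p 0.0259). Both are also in the list of oocyte markers, 10 of 12 of which were lower. The ligands Gdf2 and Bmp10, which act through Acvrl1 on endothelial cells, differed by 0.12 and -0.02 and did not pass, and neither did Acvrl1, at 0.11. Among the 11 other receptors and co-receptors, Eng, an endothelial co-receptor for Gdf2 and Bmp10, was higher by 0.36 (adjusted p from limma 0.00492). Acvr2a, a type II receptor for activins and some BMPs, was lower at -0.29, and Rgmb, a BMP co-receptor, was lower at -0.30. Of the other 5 SMADs, Smad2 of the activin branch was lower at -0.34 (adjusted p from limma 0.00375) and so was the inhibitory Smad6 at -0.27 (0.0474 in the same fit). The other inhibitory SMAD, Smad7, differed by -0.10 and did not pass.

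Extracellular antagonists moved in both directions, with 3 of 16 lower and 3 higher, against 13.3% and 10.1% of all genes. Crim1, a transmembrane protein that tethers BMPs, gave -0.81 (adjusted p from limma 0.000298), and Twsg1, a modulator of BMP binding by chordin, gave -0.34 at its brightest probe set, a direction that turned with shared probe sets left out. Grem1, which binds BMPs and keeps them from receptors, was higher by 0.38 (adjusted p from limma 0.00465), and Fst, which binds activins and some BMPs, by 0.21. Of 19 intracellular regulators, 5 were lower and 3 higher. Pdp1, a mitochondrial phosphatase that has also been tied to SMAD dephosphorylation, gave -0.62. Smurf2, a ubiquitin ligase of SMADs and receptors, gave -0.42 at its brightest probe set, while another passed in the opposite direction. Bambi, a decoy receptor and itself a BMP target, was higher by 0.30, and Fkbp1a, which keeps type I receptors inactive, by 0.25 at its brightest probe set, though another gave -0.20.

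Among 12 other targets, 2 were lower and 2 higher. Hes1, a repressor better known as a Notch target, gave -0.61 (limma adjusted p 0.000903), and Msx1, a homeobox gene, gave -0.75 (limma adjusted p 0.0012). Gata2, a transcription factor, was higher by 0.42 (limma adjusted p 0.00188). Id4, the remaining member of the Id family, was higher by 0.45 (SE 0.09, limma adjusted p 0.0124), while Id1, Id2 and Id3 did not pass. Whether Id4 differed from the other Id genes in its change was not tested.

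The 19 genes named from these lists were not equally firm. With each sample left out in turn, 12 passed every time, while Acvr2a, Bambi, Fkbp1a, Fst, Gdf9, Rgmb and Smad6 each missed the threshold at least once. With the mean of all probe sets, Fst (0.04), Twsg1 (-0.06), Fkbp1a (0.08), Smurf2 (-0.10), Rgmb (-0.17) and Acvr2a (-0.19) did not pass. Of the 14 that had other probe sets, another passed in the same direction in 6 and in the opposite direction in 1, Smurf2. For Bmp15, Twsg1, Fkbp1a and Msx1 the brightest probe set is one that can bind more than a single transcript. With such probe sets left out, Bmp15 gave -0.68 and still passed, while Twsg1 gave 0.04 and Msx1 -0.18 and neither passed. Fkbp1a then gave -0.20 and passed in the opposite direction (limma adjusted p 0.0445), so no direction is settled for Fkbp1a or Twsg1. Nor is a direction settled for Smurf2, given its probe set that passed in the opposite direction.

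**Figure D4:**
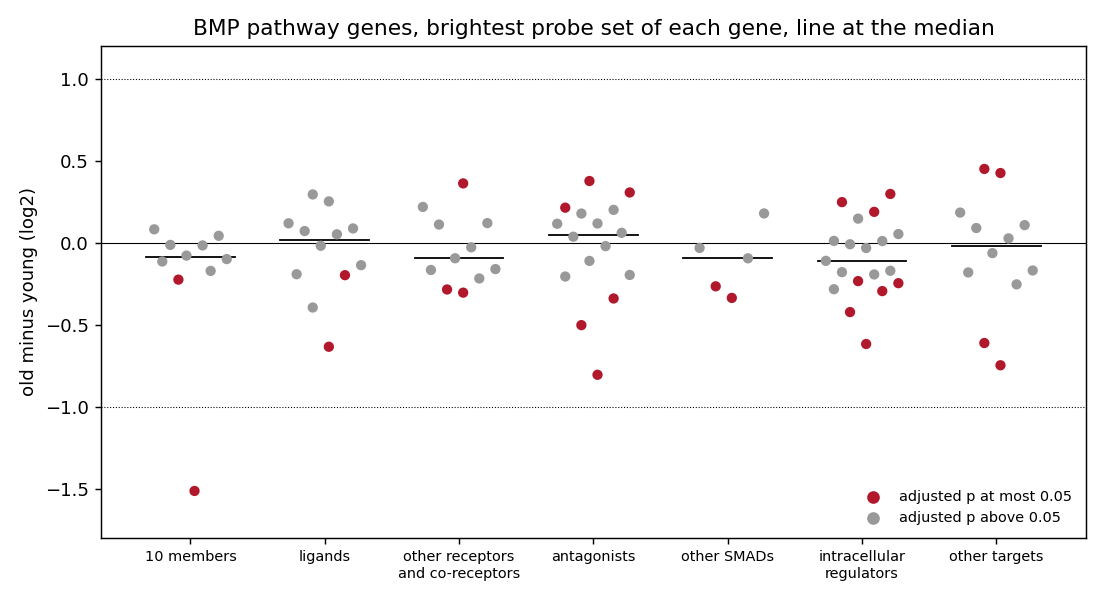
Difference between old and young follicles (vertical axis, log2) for the brightest probe set of each of the 10 genes and of the 75 further pathway genes by list, with a line at each median, red for an adjusted p of at most 0.05 and dotted lines at a 2-fold change. Tmem100, at -1.51, is the only point beyond a 2-fold change, and each of the 6 lists has a median between -0.11 and 0.05.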

How the data were processed

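Total RNA of isolated secondary follicles was hybridised to 6 arrays, 3 young and 3 old. The authors normalized the scans with robust multiarray averaging (RMA), with no version stated, and deposited linear intensity values for 45101 probe sets. Their log2 was taken without a pseudocount, since the lowest intensity was 2.62. Precision is limited by the number of arrays.

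Probe sets were named with the platform annotation, updated through RefSeq gene IDs (18032 of 18194 matched, GRCm38.p6). Those with several symbols (932), not listed (9211) or controls (64) were left out. The brightest probe set stood for a gene. Old and young samples were compared by two-sided moderated tests (limma 3.58.1, run under R 4.3.3), with Benjamini-Hochberg adjustment over 18193 genes or 34945 probe sets. The design had foreseen log2 values. The fold of 2 and the 0.05 threshold follow the study's methods, which name SAM; SAM was written anew from its description, with 20 label assignments, and run as an alternative. Steps were tested on simulated data.

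Alternatives were the mean of all probe sets, leaving out shared probe sets or dim features, quantile and cyclic loess normalization, other priors, array weights, a fold of 1.5, a replicate block and leaving out each sample. The named genes are the 10 members, up to 2 of each pathway list in each direction by p, and the 3 genes most like the member with the largest change; markers are named where they define a cell type. Gdf2, Bmp10, Acvrl1, Smad7, Emcn, Sox18, Flt1, Plvap and Star were added after their values were seen. The 10 genes, the lists and the rules were chosen with earlier results of these data known. Listed genes that were not measured were not analysed here. Scan data were not used here.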

Additional observations from a re-analysis of the deposited data

How the results depend on the processing

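Tmem100 passed the adjusted p under every alternative run, with differences between -1.57 and -0.87. It was the 1 gene called under each of them but the mean of all probe sets, which called 0 of the 10. The number of the 10 genes past the adjusted p was 2, and became 4 with the mean of all probe sets (Bmpr1a, Smad1, Smad5 and Tmem100), 1 after quantile normalization, 1 after cyclic loess and 1 by SAM, with Tmem100 alone in these 3, 3 with dim genes left out, with a trend and robust prior or with array weights (Bmpr1a added each time), and 1 to 2 with each sample left out. A fold of 1.5 raised the member probe sets called from 1 to 3 (of Tmem100, Bmpr1a and Smad1), and leaving out dim probe sets raised those past the adjusted p from 7 to 11 (9 lower and 2 higher), with fewer probe sets tested; after quantile normalization or cyclic loess 5 were lower and 2 higher.

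No sign was seen that the replicate numbers pair the samples. Same-numbered samples had correlations of deviations of 0.053, 0 and 0.043, and differently numbered ones of -0.085 to 0.063. Such correlations cannot exclude a pairing in how the samples were handled. With the replicate number as a block, 1 of the 10 genes (Tmem100) and 5 of the 28 probe sets were past the adjusted p.

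Of 140 recomputed differences of single genes among the 10, 116 kept their direction and their side of the threshold. Signs turned for some. Bmpr1b was 0.033 after quantile normalization, 0.032 after cyclic loess and -0.0305 to 0.0005 with each sample left out. Bmpr2 was -0.0131 to 0.0845 with each sample left out. Id1 was 0.0565 after quantile normalization, 0.0531 after cyclic loess and -0.0809 to 0.0265 with each sample left out, and Id2 was 0.0223 with the mean of all probe sets. Without shared probe sets, Twsg1 was 0.0379 and Fkbp1a -0.20, which passed in the opposite direction (limma adjusted p 0.0445). The pathway count ranged from 12 to 19 with each sample left out; its alternatives were chosen after seeing the data. Causes were not tested.

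Arrays give no depth, and dim probe sets lie close to background, so differences there are the least certain. Where an interval holds 0, differences of the sizes inside it, in either direction, are not excluded by 3 arrays in each group.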
